A study of Arabidopsis thaliana with 40 samples.

Results

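The 10 genes described here are Arabidopsis thaliana loci known from responses to touch and from cell wall growth. They comprise 5 genes of the xyloglucan endotransglucosylase/hydrolase family, TCH4 (AT5G57560), XTH4 (AT2G06850), XTH9 (AT4G03210), XTH24 (AT4G30270) and XTH33 (AT1G10550). A pair of calmodulin-like genes follows, TCH2 (AT5G37770) and TCH3 (AT2G41100), and 3 genes belong to the EXORDIUM family, EXO (AT4G08950), EXL2 (AT5G64260) and EXL4 (AT5G09440). They are 10 of 27826 probe sets, found by locus code, and each has 1 probe set. They were chosen from results already seen on these arrays, in which most of them stood highest in the cyp20-3 line after high light, and which values served is not recorded. Comparisons that use the cyp20-3 high-light arrays are therefore given for the 10 genes as levels and differences, with no p-value. Counts of genes past the threshold in them restate the choice and support nothing. Whether the wild-type high-light arrays also served in the choice is not recorded. P-values of comparisons with those arrays may therefore share values with it.

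A growing plant cell wall is held together by cellulose microfibrils tethered by xyloglucan. Enzymes of the XTH family cut xyloglucan chains and rejoin or hydrolyse them, which remodels the wall as cells expand or stiffen. Rain, wind and handling raise cytosolic calcium in plants, and calmodulins and calmodulin-like proteins bind that calcium. The TCH genes were found as transcripts that rise within minutes of touch: TCH2 and TCH3 encode calmodulin-like proteins, and TCH4 encodes an XTH enzyme that is also induced by brassinosteroids. EXORDIUM is an extracellular protein that promotes leaf cell expansion downstream of brassinosteroids, and the EXL proteins are its relatives.

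The arrays hold shoot RNA (leaf material in the study's own design text) from plants aged 4 weeks, grown in soil with 8 h of light and 16 h of dark. Mutant lines cyp20-3, 2cysprx, oastlB and serat2;1 and wild type (WT) were each sampled after 6 h of high light (HL, 800 µmol quanta m-2 s-1) and in normal light (NL, 80 µmol quanta m-2 s-1). By their names the lines lack a chloroplast cyclophilin, the 2-Cys peroxiredoxins, a plastid O-acetylserine(thiol)lyase and a plastid serine acetyltransferase. The sources used here give neither the alleles, nor the number of plants per array, nor whether a line is 1 isolate. Each of the 10 groups has 4 biological replicates, so 40 arrays in all, and levels are log2 intensities with no detection calls.

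The targeted transcripts were checked first. CYP20-3 (AT3G62030) lay between 5.97 and 6.77 on the cyp20-3 HL arrays, against 10.4 to 10.6 on the WT HL arrays, and OASB (AT2G43750) lay between 3.44 and 4.67 on the oastlB HL arrays, against 9.01 to 9.15 in WT HL. The 2-Cys peroxiredoxin gene AT3G11630 was at 9.0 on replicate 2 of 2cysprx HL and at 5.78 or lower on the other 3 replicates, against 10.8 to 11.1 in WT HL. Results of 2cysprx in HL are therefore also given without replicate 2. SERAT2;1 (AT1G55920) was not lower in the serat2;1 line, at 6.58 to 6.93 in serat2;1 HL against 6.28 to 6.46 in WT HL. The position of that mutation is not given, so the probe set cannot check the label, and the line is called by its label throughout. The 4 leaf markers were brighter than at least 99.7% of probe sets, and all 11 flower and root markers lay below the median probe set, the brightest being EIR1 at 3.98 log2 over all arrays. In bulk shoots, fewer cells of a type and less RNA per cell cannot be told apart.

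**Figure D1:**
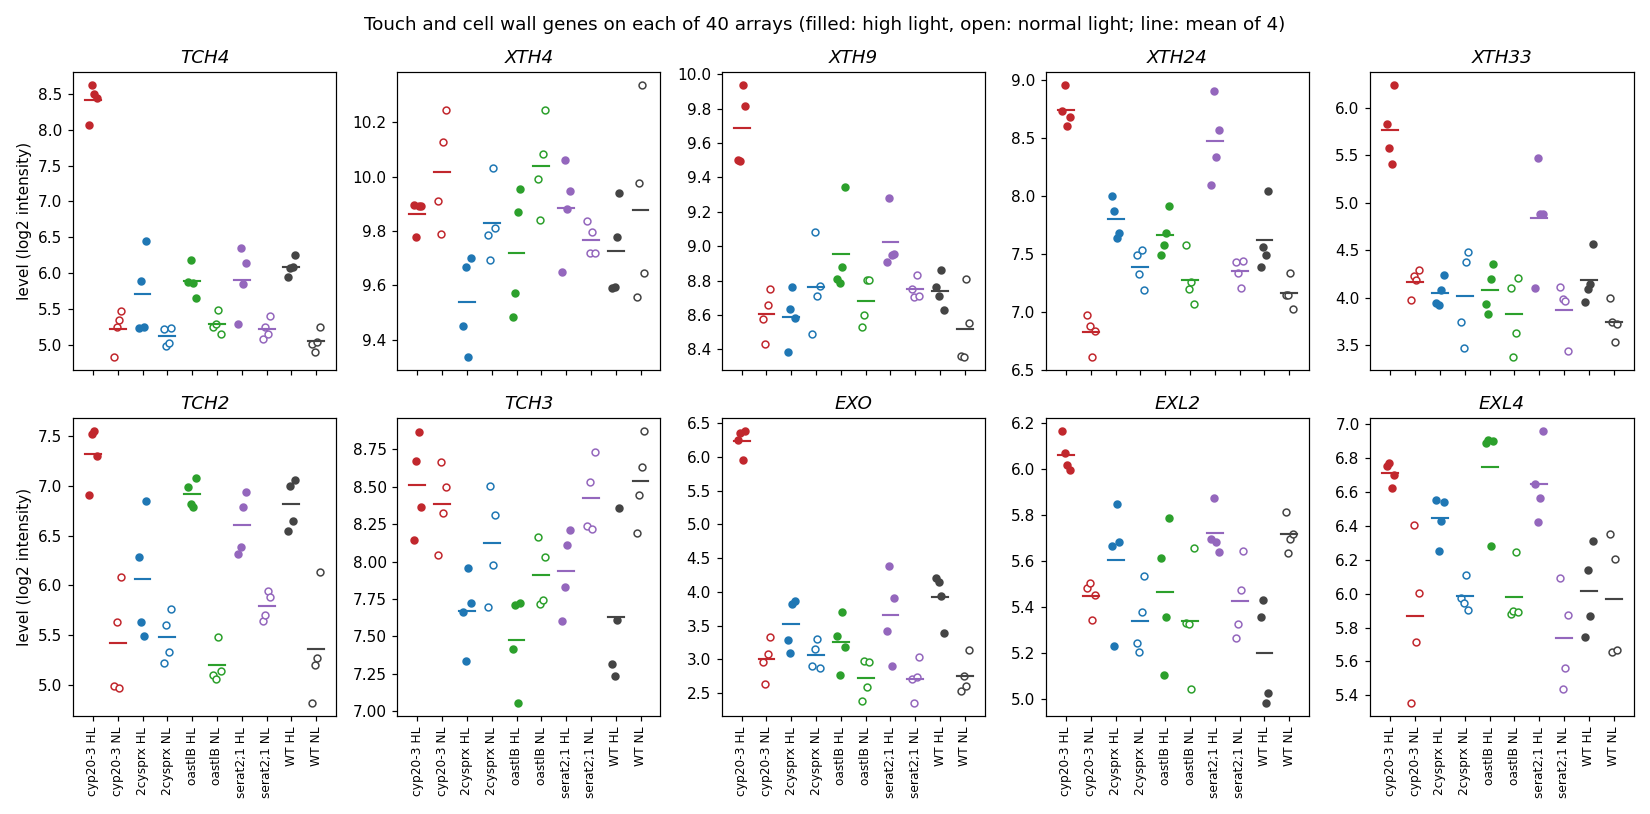
Log2 intensity of each of the 10 genes on all 40 arrays. Points are replicates (filled for HL, open for NL), lines are means of 4, and each gene has its own axis. For TCH4, EXO, EXL2 and XTH9 the 4 cyp20-3 HL arrays, on which the genes were chosen, lie above the other 36.

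In WT, 6 h of high light changed 6 of the 10 genes at an adjusted p under 0.05 in limma's test. TCH4, TCH2, EXO and XTH24 rose and TCH3 and EXL2 fell, so that both the calmodulin-like genes and the EXORDIUM relatives split in direction. Over all probe sets, 10.3% were called higher and 9.58% lower in this comparison. The median difference of the 10 genes was 0.33 log2, beside -0.02 log2 over all probe sets.

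Among the xyloglucan enzymes, TCH4 had 5.95, 6.07, 6.09 and 6.25 log2 in WT HL, against 5.0, 4.90, 5.03 and 5.25 in WT NL. All 4 HL arrays lay above all 4 NL arrays, and the difference of 1.04 ± 0.20 log2 (SE) is 2.06-fold (adjusted p = 0.000144). XTH24, an XTH enzyme that in Arabidopsis is also known as MERI5, had 7.39, 7.56, 7.49 and 8.04 log2 in WT HL, against 7.14, 7.15, 7.34 and 7.02 in WT NL. The groups did not overlap, and the rise was 0.46 ± 0.14 log2 (adjusted p = 0.019). It rested on single arrays: the adjusted p reached 0.134 among the alternatives, and the call was lost without WT HL replicate 4 or without WT NL replicate 4. XTH9, XTH33 and XTH4 differed by 0.22 ± 0.13, 0.44 ± 0.23 and -0.15 ± 0.13 log2 and did not pass.

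The calmodulin-like genes moved in opposite directions in WT. TCH2 had 6.55, 7.0, 6.65 and 7.06 log2 in WT HL, against 4.82, 5.20, 5.27 and 6.14 in WT NL. It rose by 1.46 ± 0.25 log2, or 2.75-fold (adjusted p = 4.51e-05), with replicate 4 highest in both lights. TCH3 had 7.32, 7.23, 7.61 and 8.36 log2 in WT HL, against 8.19, 8.44, 8.63 and 8.87 in WT NL. It fell by 0.91 on the log2 scale (SE 0.21, adjusted p = 0.00204), although HL replicate 4 lay above NL replicate 1.

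EXO had 4.20, 4.15, 3.94 and 3.39 log2 in WT HL, against 2.54, 2.76, 2.60 and 3.14 in WT NL, where it was dimmer than most probe sets. The groups did not overlap, and EXO rose by 1.16 ± 0.24 log2, or 2.24-fold (adjusted p = 0.000435). EXL2 went the other way, with 5.36, 5.43, 4.98 and 5.03 log2 in WT HL, against 5.81, 5.63, 5.70 and 5.72 in WT NL. It fell by 0.52 on the log2 scale (SE 0.13, adjusted p = 0.0043), again without overlap. EXL4 was at 6.02 ± 0.26 log2 in WT HL and 5.97 ± 0.36 in WT NL (SD, n = 4 each), and its difference of 0.05 ± 0.18 log2 did not pass.

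In cyp20-3 after high light, TCH4, EXO, EXL2 and XTH9 stood above all other groups on every array, and the other 6 genes overlapped with at least 1 group. In the genome-wide fit of cyp20-3 HL against WT HL, 8 of the 10 genes lay past the threshold upward and 0 downward, where 1.41% of all probe sets lay higher and 0.827% lower. In the light response of cyp20-3 itself, HL against NL, 8 lay past it upward and 0 downward, beside 8.83% of all probe sets higher and 8.99% lower. These counts follow from how the genes were chosen and are no test of them. TCH2 and XTH4 were not among the 8 against WT, and TCH3 and XTH4 were not among the 8 of the light response. With 1 array left out at a time, the difference from WT HL lay between 0.75 and 1.12 log2 for TCH3 and between 0.60 and 0.79 log2 for EXL4, the 2 genes among the 8 whose place past the threshold depended on single arrays. TCH3 lost it without cyp20-3 HL replicates 2 or 3 or WT HL replicates 1 or 2, and EXL4 without cyp20-3 HL replicates 1, 2 or 4 or WT HL replicates 1 or 3. For the rest of the 8, staying past the threshold carries no weight, since the genes were chosen on the cyp20-3 HL arrays.

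Of the xyloglucan enzymes, TCH4 had the widest gap. It had 8.07, 8.62, 8.51 and 8.45 log2 in cyp20-3 HL, against 4.83, 5.24, 5.35 and 5.46 in cyp20-3 NL, a difference of 3.19 ± 0.20 log2 or 9.12-fold. Against WT HL the difference was 2.32 ± 0.20 log2, or 4.99-fold. The highest of the other 36 arrays, in 2cysprx HL, reached 6.44 log2, which is 1.62 log2 below the lowest cyp20-3 HL array.

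XTH33, which in Arabidopsis has a predicted membrane anchor that is unusual in its family, had 5.83, 5.57, 5.41 and 6.23 log2 in cyp20-3 HL, against 3.97, 4.23, 4.18 and 4.29 in cyp20-3 NL. In WT HL it had 3.96, 4.10, 4.15 and 4.56 log2, so that cyp20-3 HL was higher by 1.57 ± 0.23 log2, or 2.97-fold. A single array elsewhere, replicate 2 of serat2;1 HL at 5.47 log2, lay within the cyp20-3 HL range. XTH24 had 8.73, 8.95, 8.60 and 8.68 log2 in cyp20-3 HL, against 6.97, 6.88, 6.61 and 6.84 in cyp20-3 NL. The NL mean of 6.82 log2 was the lowest of the 10 groups and the HL mean of 8.74 the highest, a light difference of 1.92 ± 0.14 log2.

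XTH9, which is known for expression in growing shoot tips and stems, had 9.50, 9.49, 9.94 and 9.82 log2 in cyp20-3 HL, against 8.57, 8.43, 8.66 and 8.75 in cyp20-3 NL. Its WT HL arrays were at 8.76, 8.71, 8.86 and 8.63 log2, and the difference from them was 0.95 ± 0.13 log2. XTH4, also known as EXGT-A1, showed no such pattern: it was at 9.86 ± 0.06 log2 in cyp20-3 HL and 9.73 ± 0.17 in WT HL (SD, n = 4 each). Its 10 group means lay between 9.54 and 10.04 log2, and cyp20-3 HL was the fifth of them.

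The calcium sensors stood less far apart. TCH2 had 6.91, 7.52, 7.55 and 7.30 log2 in cyp20-3 HL, against 4.99, 5.63, 4.97 and 6.08 in cyp20-3 NL, a light difference of 1.91 ± 0.25 log2. Against WT HL the difference was 0.51 ± 0.25 log2, and 5 of the other 36 arrays were at or above the lowest cyp20-3 HL array. TCH3 had 8.14, 8.67, 8.87 and 8.37 log2 in cyp20-3 HL, against 8.04, 8.67, 8.33 and 8.50 in cyp20-3 NL. These 2 groups overlapped, with a difference of 0.13 ± 0.21 log2. The 0.88 ± 0.21 log2 by which cyp20-3 HL exceeded WT HL thus goes with the lower WT HL level.

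In the EXORDIUM family, EXO had 6.25, 6.36, 5.95 and 6.38 log2 in cyp20-3 HL, against 2.96, 2.63, 3.08 and 3.33 in cyp20-3 NL. The difference was 3.24 ± 0.24 log2, or 9.42-fold, and that from WT HL was 2.31 ± 0.24 log2, or 4.97-fold. The highest array of the other 36, in serat2;1 HL, was at 4.38 log2. EXL2 had 6.16, 6.07, 6.02 and 6.00 log2 in cyp20-3 HL, against 5.48, 5.50, 5.35 and 5.45 in cyp20-3 NL. It was 0.62 ± 0.13 log2 above cyp20-3 NL and 0.86 ± 0.13 log2 above WT HL, where WT itself was lower in HL than in NL. EXL4 had 6.75, 6.77, 6.62 and 6.70 log2 in cyp20-3 HL, against 5.36, 6.41, 5.71 and 6.01 in cyp20-3 NL, and 5.74, 6.14, 5.87 and 6.31 in WT HL. Its level in cyp20-3 HL was shared with oastlB HL, whose mean of 6.74 log2 was the highest of the 10 groups.

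By group mean, cyp20-3 HL was first for TCH4, TCH2, EXO, EXL2, XTH9, XTH24 and XTH33. For 4 of the 10 genes, TCH4, EXO, EXL2 and XTH9, all 4 cyp20-3 HL arrays lay above the other 36, and the gap was 0.12 log2 for EXL2 and 0.15 log2 for XTH9. Next in order came WT HL for TCH4 (6.09 log2) and EXO (3.92 log2), oastlB HL for TCH2 (6.92 log2), and serat2;1 HL for EXL2 (5.72 log2), XTH9 (9.02 log2), XTH24 (8.48 log2) and XTH33 (4.83 log2). From the second group down, neighbours in the order overlapped for TCH4, EXO, EXL2, XTH9 and XTH33. XTH24 was stepped: cyp20-3 HL and serat2;1 HL overlapped, and both stood clear of the other HL groups. No neighbours in the order were separate for TCH2, TCH3, EXL4 and XTH4. That cyp20-3 HL stood first or apart follows from the choice of the genes. The share of all probe sets in which it does so is not given.

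**Figure D2:**
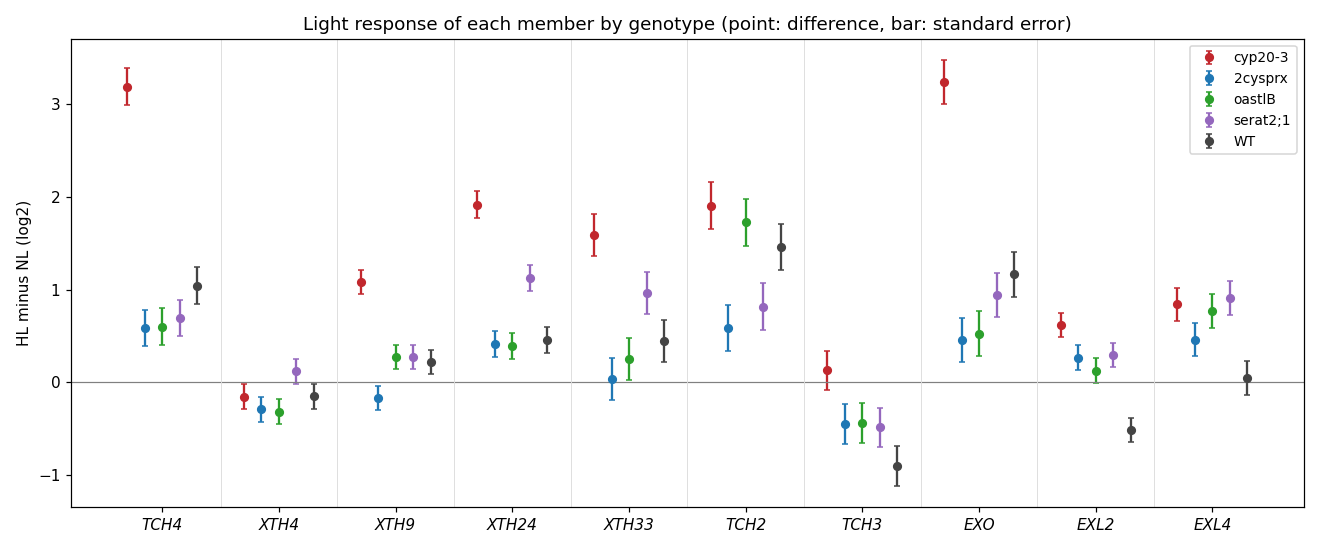
HL minus NL (log2) for each gene in the 5 genotypes, with standard errors from the limma fit. TCH4 and EXO reach 3.19 and 3.24 log2 in cyp20-3, against 1.04 and 1.16 in WT, and EXL2 is negative in WT alone.

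Among the other lines, high light raised 6 of the 10 genes in serat2;1, 3 in oastlB and 0 in 2cysprx, with 0 lower in each. Over all probe sets, 5.54% were called higher in serat2;1 and 7.9% in oastlB, and 8.55% were called in either direction in 2cysprx. In 2cysprx 6 of the 10 had an unadjusted p under 0.05 in limma's test, and limma with an intensity trend in the prior variance called 2 of them, TCH4 and XTH24. No share of all probe sets at the unadjusted threshold is given here or below, so such counts are not read as an excess. TCH4 differed by 0.59 ± 0.20 log2 in 2cysprx (adjusted p = 0.0564) and was called without HL replicate 1 or 3. Without HL replicate 2, the array with the high peroxiredoxin level, 0 of the 10 were called and TCH4 differed by 0.53 log2.

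In serat2;1 the light responses that no left-out array ended were those of XTH24, XTH33 and EXL4. XTH24 had 8.10, 8.90, 8.33 and 8.57 log2 in serat2;1 HL, against 7.43, 7.33, 7.20 and 7.44 in serat2;1 NL, and rose by 1.12 ± 0.14 log2, or 2.18-fold (adjusted p = 8.64e-07). XTH33 had 4.10, 5.47, 4.88 and 4.89 log2 in serat2;1 HL, against 4.11, 3.99, 3.97 and 3.44 in serat2;1 NL. It rose by 0.96 ± 0.23 log2 (adjusted p = 0.00391), although HL replicate 1 was at the NL level. EXL4 had 6.65, 6.42, 6.56 and 6.96 log2 in serat2;1 HL, against 6.09, 5.44, 5.56 and 5.87 in serat2;1 NL, a rise of 0.91 ± 0.18 log2 (adjusted p = 0.000618).

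EXO, TCH2 and TCH4 also rose in serat2;1, and each of these calls was lost without single arrays. EXO had 3.42, 4.38, 2.90 and 3.91 log2 in serat2;1 HL, against 2.70, 2.36, 2.74 and 3.04 in serat2;1 NL, and its rise of 0.94 ± 0.24 log2 (adjusted p = 0.0069) was lost without HL replicate 2. TCH2 had 6.31, 6.39, 6.79 and 6.93 log2 in serat2;1 HL, against 5.64, 5.70, 5.94 and 5.88 in serat2;1 NL. Its rise of 0.81 ± 0.25 log2 (adjusted p = 0.0294) was lost without NL replicate 1 or 2 or HL replicate 3 or 4. TCH4 had 5.29, 6.35, 5.85 and 6.15 log2 in serat2;1 HL, against 5.08, 5.24, 5.15 and 5.40 in serat2;1 NL, and its rise of 0.69 ± 0.20 log2 (adjusted p = 0.0165) was lost without NL replicate 1 or HL replicate 2 or 4. Fitted on the serat2;1 arrays alone, TCH4, EXO and XTH33 did not pass, with adjusted p up to 0.0925, 0.0965 and 0.073 over all alternatives.

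In oastlB the calcium sensor TCH2 had the largest light difference of the 10 genes. It had 6.99, 6.82, 6.79 and 7.08 log2 in oastlB HL, against 5.10, 5.06, 5.48 and 5.14 in oastlB NL, and rose by 1.72 ± 0.25 log2, or 3.3-fold (adjusted p = 3.64e-06). EXL4 had 6.89, 6.91, 6.28 and 6.90 log2 in oastlB HL, against 5.88, 5.90, 6.25 and 5.89 in oastlB NL, a rise of 0.77 ± 0.18 log2 (adjusted p = 0.00222). Replicate 3 lay between the other replicates of the 2 groups in both lights. TCH4 had 5.87, 6.18, 5.85 and 5.65 log2 in oastlB HL, against 5.24, 5.29, 5.49 and 5.15 in oastlB NL. Its rise of 0.60 ± 0.20 log2 (adjusted p = 0.0307) was lost in 6 of the 8 fits that left out an oastlB array, all but those without NL replicate 3 or HL replicate 4. EXO, which rose in WT, differed in oastlB by 0.53 ± 0.24 log2 and did not pass. XTH24 differed by 0.39 ± 0.14 log2 (adjusted p = 0.0569), and passed with an intensity trend, with cyclic loess normalization and without replicate 1 of oastlB NL or HL.

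In normal light 0 of the 10 genes passed limma's test against WT in any line, and these comparisons share the WT NL arrays. In either direction, 0.0467% of all probe sets were called in cyp20-3, 2.42% in serat2;1, 3.42% in oastlB and 10.1% in 2cysprx. An unadjusted p under 0.05 was reached by 2 of the 10 genes in cyp20-3 and in oastlB, and by 1 in 2cysprx and in serat2;1. The percentages above are for adjusted p and cannot be set beside these counts. Differences from WT lay between -0.34 and 0.42 log2 in cyp20-3. EXL2 was at -0.38 ± 0.13 log2 in 2cysprx (adjusted p = 0.066) and was called there without 2cysprx NL replicate 4, at -0.44 log2 and an adjusted p of 0.041. In oastlB EXL2 was called without oastlB NL replicate 4, at -0.48 log2 and an adjusted p of 0.0441.

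**Figure D3:**
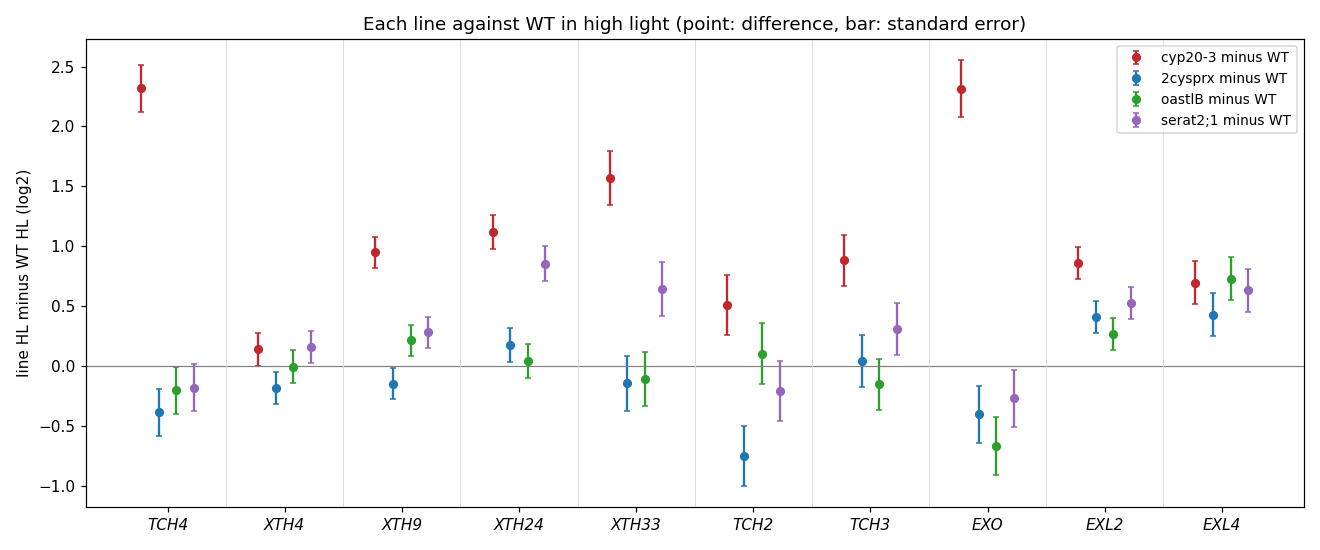
Each mutant line minus WT in high light (log2) for the 10 genes, with standard errors; the 4 comparisons share the WT HL arrays. TCH4 and EXO stand above 2 log2 in cyp20-3, while their points in the other lines lie between -0.67 and -0.18 log2.

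In high light 2 genes differed from WT in serat2;1, 1 in oastlB and 0 in 2cysprx; these comparisons share the WT HL arrays. Over all probe sets, 0.514% were called higher in serat2;1 and 0.449% in oastlB, and 2.21% were called in either direction in 2cysprx. XTH24 was higher in serat2;1 HL than in WT HL by 0.86 ± 0.14 log2, or 1.81-fold (adjusted p = 0.00112), with no overlap between the groups. EXL2 had 5.70, 5.87, 5.68 and 5.64 log2 in serat2;1 HL, above all 4 WT HL arrays, a difference of 0.52 ± 0.13 log2 (adjusted p = 0.0436). That call was lost in 6 of the 8 fits that left out an array, all but those without WT HL replicate 1 or 2. XTH33 was higher in serat2;1 HL by 0.64 ± 0.23 log2 (adjusted p = 0.19) and passed without its low replicate 1.

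EXL4 was higher in oastlB HL than in WT HL by 0.73 ± 0.18 log2 (adjusted p = 0.0427), and the call held only in the fit without oastlB HL replicate 3 among the 8 that left out an array. Fitted on the compared arrays alone, 0 of the 3 calls in serat2;1 and oastlB passed. In 2cysprx 3 of the 10 genes had an unadjusted p under 0.05 against WT HL, again with no share of all probe sets at that threshold. TCH2 was at 6.29, 5.63, 5.48 and 6.85 log2 in 2cysprx HL and differed from WT HL by -0.75 ± 0.25 log2 (adjusted p = 0.124). It was called without 2cysprx HL replicate 4 and with the replicate number as a block. Without 2cysprx HL replicate 2, EXL2 was called at 0.53 log2 (adjusted p = 0.0259).

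The difference between a line's light response and that of WT was tested in the same fit, and all 4 such comparisons share the WT arrays. EXL2 was the gene that passed in 2cysprx and in serat2;1, as 1 of 10 in each, beside 2.55% and 0.999% of all probe sets called higher. In oastlB 0 of 10 passed, with 2.8% of all probe sets called in either direction and 2 of the 10 at an unadjusted p under 0.05. That percentage is for adjusted p and cannot be set beside the unadjusted count. EXL2 had 5.67, 5.23, 5.85 and 5.68 log2 in 2cysprx HL, against 5.24, 5.20, 5.38 and 5.54 in 2cysprx NL. The light difference exceeded that of WT by 0.78 ± 0.19 log2 in 2cysprx (adjusted p = 0.0077) and by 0.81 ± 0.19 log2 in serat2;1 (adjusted p = 0.0173). Both calls held in every alternative, with adjusted p up to 0.0331 and 0.0441. Both draw on WT HL, where EXL2 had its lowest group mean (5.20 log2) and which may have served in the choice of genes. Both also draw on WT NL, whose mean of 5.72 log2 was the highest of the NL groups. Without 2cysprx HL replicate 2 the difference in 2cysprx was 0.91 log2 (adjusted p = 0.00176).

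Other differences of light response passed only under some settings. In 2cysprx TCH2 was at -0.87 ± 0.36 log2 (adjusted p = 0.165) and passed without WT NL replicate 4 or 2cysprx HL replicate 4. In serat2;1 EXL4 was at 0.86 ± 0.26 log2 (adjusted p = 0.0653) and XTH24 at 0.67 ± 0.20 log2 (adjusted p = 0.071), and both passed with an intensity trend. EXL4 also passed without serat2;1 NL replicate 1, serat2;1 HL replicate 2 or WT NL replicate 2, and XTH24 without serat2;1 HL replicate 1 or WT HL replicate 4.

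In oastlB the same difference for EXL2 was 0.64 ± 0.19 log2 (adjusted p = 0.0535), and it passed under 3 other settings and without oastlB NL replicate 4, oastlB HL replicate 2 or WT HL replicate 2. Its oastlB HL arrays were at 5.61, 5.11, 5.36 and 5.79 log2, against 5.33, 5.33, 5.04 and 5.66 in oastlB NL. EXL2 thus fell with light in WT, and in none of the 4 lines was its light difference below 0. In limma's test its own light difference did not pass in 2cysprx, oastlB or serat2;1 (adjusted p = 0.253, 0.629 and 0.16). All 4 comparisons with WT share 1 set of WT arrays. There EXL2 was highest of the NL groups (5.72 log2) and lowest of the HL groups (5.20 log2). In cyp20-3 the light difference exceeded that of WT by 2.15 ± 0.28 log2 for TCH4, 2.07 ± 0.34 for EXO, 1.46 ± 0.20 for XTH24, 1.13 ± 0.19 for EXL2 and 0.86 ± 0.18 for XTH9. XTH33 stood at 1.15 ± 0.32 log2, TCH3 at 1.03 ± 0.30 log2 and XTH4 at 0.00 ± 0.19 log2 in the same comparison. The first 5 of these 8 lay past the threshold, where 0.629% of all probe sets lay higher, a count that follows from the choice of genes and is no test of them. XTH33 also lay past it on the compared arrays alone, and TCH3 without WT HL replicate 4.

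**Figure D4:**
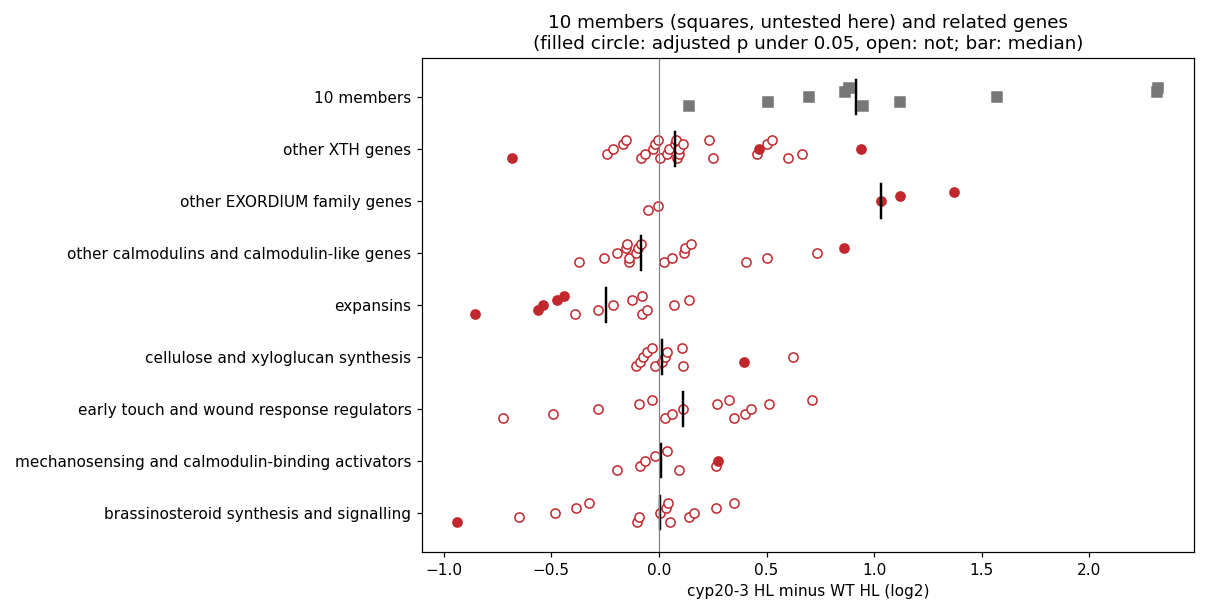
cyp20-3 HL minus WT HL (log2) for the 10 genes (grey squares, not tested) and for each gene of 8 related lists (circles, filled at an adjusted p under 0.05), with the median of each list as a bar. EXL3, EXL5 and PHI-1 lie above 1 log2, and the 5 filled expansins lie below 0.

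Relatives of the 10 genes were then read in cyp20-3 HL against WT HL, from lists that leave the 10 out and were drawn up by family and pathway with earlier results of these data known. The comparison uses the arrays on which the 10 genes were chosen. Counts and p-values of their relatives are therefore descriptions, not independent of that choice, and are not read as an excess. Of the 5 other EXORDIUM family genes, 3 rose and 0 fell, beside 1.41% and 0.827% of all probe sets, with a list median of 1.03 log2 beside -0.01 over all probe sets. EXL3 (AT5G51550) averaged 7.49 ± 0.15 log2 in cyp20-3 HL and 6.12 ± 0.17 in WT HL (SD, n = 4 each), a rise of 1.37 ± 0.14 log2 (SE, adjusted p = 2.75e-08). EXL5 (AT2G17230) rose by 1.12 ± 0.15 log2 (adjusted p = 8.24e-06) and PHI-1 (AT1G35140, also EXL1) by 1.03 ± 0.20 log2 (adjusted p = 0.00175). PHI-1 was dim, averaging 3.13 log2 in cyp20-3 HL and 2.10 in WT HL, where the median probe set averaged 4.75 log2 over all arrays. None of the 3 overlapped between the groups, which adds nothing for genes named because they were called. The share of all probe sets with that trait is not given. Over the alternatives on all arrays the count stayed at 3, and it was 2 on the compared arrays alone.

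Of the 28 other XTH genes, 2 rose and 1 fell, with a median of 0.08 log2. EXGT-A3 (AT2G01850, also XTH27) rose by 0.94 ± 0.15 log2 (adjusted p = 0.000121) and XTH28 by 0.47 ± 0.12 log2 (adjusted p = 0.019), while XTH31, a wall enzyme with hydrolase activity, fell by 0.68 on the log2 scale (SE 0.13, adjusted p = 0.00111). A single gene of the family rose without cyp20-3 HL replicate 4 or without WT HL replicates 1, 3 or 4. Of the 19 other calmodulins and calmodulin-like genes, 1 rose and 0 fell, and the median was -0.08 log2. That gene, CML11, rose by 0.86 ± 0.24 log2 (adjusted p = 0.0459), and was not called without cyp20-3 HL replicates 2, 3 or 4 or WT HL replicates 2 or 3.

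Expansins are wall-loosening proteins that act without cutting xyloglucan. Of 14, 5 fell and 0 rose, with a median of -0.25 log2. EXPA15 averaged 4.89 ± 0.25 log2 in cyp20-3 HL and 5.75 ± 0.20 in WT HL (SD, n = 4 each), and fell by 0.86 on the log2 scale (adjusted p = 0.00223). EXPA4 fell by 0.56 on the log2 scale (adjusted p = 0.0313), and EXPA8, EXPA11 and EXPA1 were the other 3. The count was unstable: it was 1 without cyp20-3 HL replicate 2 or WT HL replicate 2, 2 without cyp20-3 HL replicate 4 or WT HL replicates 1 or 4 or on the compared arrays alone, and 3 without cyp20-3 HL replicate 3.

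The list of 15 early touch and wound regulators includes WRKY, ZAT, CBF and ERF transcription factors. It had 0 calls in limma's test and 2 genes at an unadjusted p under 0.05. Its median was 0.11 log2. With array weights limma called 1 gene higher and 1 lower, and 1 gene was called lower without WT HL replicate 3. Of 8 genes for mechanosensing and calmodulin-binding activators, 1 rose: SR1 (AT2G22300, also CAMTA3), a calmodulin-binding transcription factor, by 0.28 ± 0.07 log2 (adjusted p = 0.035), and 7 of the 8 fits without an array lost it. Of 13 genes of cellulose and xyloglucan synthesis, 1 rose: CSLC04, a xyloglucan glucan synthase, by 0.39 ± 0.10 log2 (adjusted p = 0.0217), not called without cyp20-3 HL replicates 2 or 4 or WT HL replicates 1 or 2. Of 15 brassinosteroid genes, 1 fell: PRE1, a growth-promoting helix-loop-helix protein, by 0.94 on the log2 scale (SE 0.14, adjusted p = 6.04e-05). In that list 2 genes fell with an intensity trend or the replicate block, and 3 on the compared arrays alone or with array weights. The 6 lists of cell type markers, 29 genes in all, had 0 calls in limma's test of cyp20-3 HL against WT HL and 3 genes at an unadjusted p under 0.05. Summed levels of each list overlapped between the groups, as with the 7 root markers at 17.7 to 18.5 log2 in cyp20-3 HL and 16.7 to 18.9 in WT HL.

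The same lists were read in the WT light response, HL against NL, where 10.3% of all probe sets rose and 9.58% fell. The counts below stand beside those shares, which the XTH counts lie near, and nothing particular to a list is read from them. Of the other XTH genes 4 rose and 3 fell: XTH6 rose by 0.80 ± 0.12 log2 and XTH32 by 0.76 ± 0.11, while XTH7 fell by 0.56 and XTH11 by 0.53 on the log2 scale. XTH11 was near the threshold (adjusted p = 0.0476), and 2 genes fell in 7 of the 8 fits without an array, the exception being that without WT NL replicate 2. Of the other EXORDIUM genes EXL5 rose, by 1.04 ± 0.15 log2 (adjusted p = 3.16e-06). Of the other calmodulin genes 4 rose and 0 fell, led by CML23 (0.70 ± 0.20 log2) and CAM9 (0.64 ± 0.09 log2). That count was 1 without WT HL replicate 4 and 2 without WT NL replicate 1 or 2 or on the WT arrays alone.

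Of the early touch and wound regulators 3 rose in WT HL and 0 fell: STZ, a zinc finger repressor, by 1.27 ± 0.42 log2 (adjusted p = 0.0266), CBF2 by 0.87 ± 0.31 log2 (adjusted p = 0.0457) and CAX3, a vacuolar calcium exchanger, by 0.76 ± 0.23 log2 (adjusted p = 0.0135). The count was 1 without WT NL replicates 1, 2 or 3 or WT HL replicates 2 or 4 or on the WT arrays alone, and 2 without WT NL replicate 4 or WT HL replicate 3. Of the mechanosensing and calmodulin-binding genes 1 rose and 3 fell. MSL10, a mechanosensitive channel, rose by 0.87 ± 0.13 log2, and AT4G04340 and SR1 fell by 0.77 and 0.66 on the log2 scale. Of the brassinosteroid genes 4 rose and 4 fell, among them PRE5 (up by 1.28 ± 0.28 log2) and the transcription factor BES1 (down, a difference of -0.65 ± 0.11 log2). In each of the 8 fits that left out a WT array 4 genes fell, while the rises numbered 1 without WT NL replicate 1 and 2 in 5 others, all but those without WT NL replicate 3 or 4.

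Of the expansins 3 rose, EXPA10 by 0.51 ± 0.13 log2, EXPA5 by 0.44 ± 0.09 and EXP3 by 0.43 ± 0.09, and EXPA8 fell by 0.39 on the log2 scale (adjusted p = 0.0461). In the fits that left out an array, 1 gene fell without WT NL replicate 1 or WT HL replicate 1 and 0 otherwise, and 5 rose without WT NL replicate 3. Of the cellulose and xyloglucan genes BGAL10, a wall galactosidase, fell by 0.92 on the log2 scale (adjusted p = 1.8e-09), and XYL1, a xylosidase that trims xyloglucan, rose by 0.23 ± 0.08 log2 (adjusted p = 0.0361). In the fits that left out an array, 1 gene of that list rose without WT NL replicate 2 or 3 and 0 otherwise. Of the 29 cell type markers, 3 were called in the WT light response. These were 1 leaf and 1 guard cell marker that rose and 1 root marker that fell. Summed leaf markers did not overlap between WT NL and WT HL, while the sums of the other marker lists did. In the lines' own light responses, 5 markers were called in cyp20-3, 4 in oastlB, 3 in 2cysprx and 3 in serat2;1. Whether the mix of cell types changed with light was not tested.

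Across the 10 group means, the 45 pairs among the 10 genes had a median Pearson r of 0.66, and 27 pairs were above 0.5. Without the cyp20-3 HL mean the median was 0.40 and 21 pairs were above 0.5. Other pairs were opposed, the lowest r being -0.41 over all 10 means (TCH2 with XTH4). Without cyp20-3 HL, TCH3 was at -0.84 with TCH4 and -0.73 with TCH2. The share of pairs above 0.5 among all probe sets is not given. Replicates within a group moved together far less: over 40 deviations from group means the median r was 0.13, and 1 pair, TCH4 with TCH2, was above 0.5, at 0.504. These are descriptions over groups that share a line or a light.

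The probe sets nearest to each gene over the 10 group means were taken from 1748 whose means span at least 1 log2. Nearest to TCH4 were JAZ7 (r = 0.978) and AT2G41640 (r = 0.976), nearest to EXO were AT2G41640 (r = 0.978) and PHI-1 (r = 0.968), and nearest to XTH33 were PATL2 (r = 0.986) and AT4G16563 (r = 0.981). TCH2 lay nearest to AT5G05365 and SRC2 (r = 0.979 each), XTH24 to AT5G52882 (r = 0.968) and AT5G03120 (r = 0.951), and XTH9 to AT2G18860 (r = 0.961) and WRKY18 (r = 0.956). JAZ7, a jasmonate repressor, was higher in cyp20-3 HL than in WT HL by 1.56 ± 0.24 log2, and WRKY18, a defence transcription factor, by 2.46 ± 0.23 log2. JAZ7 was dim, averaging 3.75 log2 in cyp20-3 HL and 2.19 in WT HL. The group means behind r include cyp20-3 HL, on which the 10 genes were chosen. High levels there in their nearest probe sets therefore follow in part from that choice. TCH3 lay nearest to AT4G11000 (r = 0.94) and SAUL1 (r = 0.936), and EXL4 to HSFA3 (r = 0.963) and AT3G05165 (r = 0.928). The likeness was weaker for EXL2, to AT2G44500 (r = 0.879) and AT2G15880 (r = 0.857), and for XTH4, to AT1G17665 (r = 0.903) and PCL1 (r = 0.787).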

How the data were processed

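The authors deposited 1 table of log2 values for 40 Affymetrix arrays, and the submitters' processing notes name RMA, with no version. Neither the array type nor how probes were grouped is given in the sources used here. Biotin-labelled cRNA came from shoot RNA, per the labels' protocols. The table holds 27826 probe sets, each named by a locus code. Symbols come from a RefSeq gene table (TAIR10.1), which held 27241 of the loci. No coordinates are given, since the build is not named. Cross-hybridisation between members of a gene family was not tested.

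All arrays were fitted in limma 3.58.1 (R 4.3.3) with 1 mean for each group and 17 contrasts (30 residual and 3.90 prior degrees of freedom). P-values are two-sided and Benjamini-Hochberg adjusted over all probe sets within a contrast. The test sets each difference against the spread between biological replicates, pooled over the 10 groups and moderated across probe sets. Groups were taken from the titles. A difference is in log2 with its standard error, and a fold is 2 raised to it. The script was tested on simulated data.

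The 10 genes and the lists were chosen with earlier results of these data known. Named are all 10 genes, the 2 largest rises and falls called in each list, and the 2 nearest probe sets per gene by Pearson r over group means. Genes named beyond this were chosen after their values were seen. Precision is limited by the number of arrays, and signal over background is unknown.

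Alternatives were an intensity trend, the replicate number as a block, only the compared arrays, array weights, quantile and cyclic loess normalization, only probe sets at or above the median brightness, and leaving out each array. Same-numbered replicates did not deviate together: of 52 pairs, 2 correlated above 0.1 (range -0.11 to 0.12). Arrays correlated at 0.973 to 0.993 across probe sets.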

Additional observations from a re-analysis of the deposited data

Results flagged for a closer look

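In 5 of 100 sets of 4 replicates (10 genes in 10 groups), 1 array stood apart by Dixon's criterion, where chance alone gives about 5%. EXL4 was at 6.28 log2 on replicate 3 of oastlB HL, against 6.89 to 6.91 on the other 3, and at 6.25 log2 on replicate 3 of oastlB NL, against 5.88 to 5.90. XTH9 was at 9.35 log2 on replicate 4 of oastlB HL, against 8.79 to 8.88, and at 9.28 log2 on replicate 2 of serat2;1 HL, against 8.91 to 8.95. XTH4 was at 9.78 log2 on replicate 2 of cyp20-3 HL, against 9.89 on the other 3, a small gap in a tight group.

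In the 3 lines other than cyp20-3, the light response differed from that of WT in 2 of 30 comparisons by limma's test of the difference. Over all probe sets, 2.55% were called higher in 2cysprx and 0.999% in serat2;1, and 2.8% were called in either direction in oastlB. Both differences were of EXL2, by 0.78 ± 0.19 log2 in 2cysprx and 0.81 ± 0.19 log2 in serat2;1. They share the WT arrays and are not separate findings. In cyp20-3 the difference was 2.15 ± 0.28 log2 for TCH4, 2.07 ± 0.34 for EXO, 1.46 ± 0.20 for XTH24, 1.13 ± 0.19 for EXL2 and 0.86 ± 0.18 for XTH9. These 5 values restate the choice of the genes on those arrays and are given with no test.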

How the results depend on the processing

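Of the 41 calls of the 10 genes, 21 use the cyp20-3 HL arrays on which the genes were chosen, so their stability says nothing about them. The other 20, which include comparisons with the WT HL arrays, kept their sign in every alternative. All 20 passed with an intensity trend, array weights, quantile and cyclic loess normalization and the replicate block, and the 17 that could be tested among probe sets at or above the median brightness passed there. With only the compared arrays 7 of 20 were lost, and leaving out 1 array lost 29 of 176. The counts that follow include the cyp20-3 HL comparisons. Leaving out 1 array gave 5 to 6 calls in the WT light response (6 in full), 15 to 20 in the mutants' light responses (17), 8 to 12 between lines and WT in HL (11), and 7 to 9 in the differences of light response (7). Between lines and WT in NL it gave 0 to 1 calls, against 0 in full. The probe sets at or above the median brightness alone gave 2 calls in NL, EXL2 in 2cysprx (-0.38 log2, adjusted p = 0.0296) and TCH3 in oastlB (-0.62 log2, adjusted p = 0.0495). Only the compared arrays gave 7 calls in HL against 11. The cause was not tested.

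The replicate numbers did not pair the arrays, and with the number as a replicate block the count of calls was 6 in the WT light response, 18 in the mutants' light responses, 0 between lines and WT in NL, 12 in HL and 8 in the differences of light response. Signal over background is unknown for these values, EXO in NL included.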
